A study of Mus musculus with 16 samples.

Results

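The acetylated islands of late Bcl11b knockout T helper 2 (Th2) cells were set against those of early knockout cells. The members were the 4 H3K27ac libraries titled as late or early Th2 with the Bcl11b KO genotype, 2 per stage, out of 16 libraries in the series. Late KO cells came from Bcl11b[fl/fl]-CreERT2 mice on the C57BL/6 background. They were cultured for 4 days under Th2 conditions, rested for 1 day with IL-2 and returned to Th2 conditions for 4 days more, and 4-hydroxytamoxifen (4-OHT), the drug that switches the Cre recombinase on, was present in the second culture alone. Early KO cells of the same strain had a single Th2 culture of 4 days with 4-OHT. Late WT and early WT cells carried the same floxed alleles and the same Cre, had the same cultures and received no 4-OHT, and their 4 H3K27ac libraries served as a comparator. The labels name the starting cells as naive CD4 T cells and also give a CD4+CD44high sort. The promoter that drives the Cre, and whether replicates came from separate cultures or animals, are not given in the sources used here, so p-values measure no more than a spread that may be technical.

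The late and early KO groups differed in the age of the culture, in the stage at which the gene was deleted and in what the cells had done before deletion, and these cannot be told apart. Genotype and 4-OHT cannot be told apart either, because no treated sample kept the gene. In a bulk library, a mark lost from some of the cells and a mark lowered in each cell also cannot be told apart.

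Bcl11b is a zinc finger transcription factor that T cells need to take on and keep their identity. Acetylation of histone H3 at lysine 27 (H3K27ac) marks active promoters and enhancers, and long stretches of it usually lie over clusters of enhancers near genes that define a cell type. As a T cell becomes a Th2 cell, enhancers of its naive state lose the mark and enhancers of the effector state gain it. An island is a stretch of enriched 200-bp windows that the caller SICER joined across small gaps, and it comes with a score that was used here only to rank islands within their own list.

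Positions are on the mouse build mm9. No mm9 annotation was used, so regions are named by position and not by gene, and neither the deletion within Bcl11b nor the marker genes of Th2 and other cell types were examined. No read counts came with the lists, so depth is unknown, and where no island is listed this says only that a list does not hold one.

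Acetylation covered nearly the same total length at the 2 stages. Islands covered 111.67 and 100.88 Mb in late KO cells, against 104.83 and 108.15 Mb in early KO cells. The means were 106.3 ± 7.63 Mb in late KO and 106.5 ± 2.348 Mb in early KO cells (SD, n = 2 each, exact two-sided permutation p = 1.0). The lists held 27722 and 29459 islands in late KO and 32112 and 28126 in early KO cells, so their ranges overlapped. The median island was 2800 and 2400 bp wide in late KO cells and 2400 and 2800 bp wide in early KO cells. Islands wider than 10 kb made up 24.69% and 20.99% of the covered length in late KO cells, against 17.0% and 20.83% in early KO cells. Both late values lay above both early ones, by a margin of less than 1 percentage point between the nearest libraries, and the exact two-sided permutation p of 0.3333 is the smallest that 2 against 2 allows. Over both genotypes that share averaged 22.02 ± 1.896% in late and 19.35 ± 1.898% in early cells (SD, n = 4 each, exact two-sided permutation p = 0.1143), which did not pass the test.

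Late and early KO libraries shared fewer acetylated windows than replicates of a stage did. Counting 200-bp windows covered in at least 1 library of a pair, a late KO and an early KO library shared 68.69% on average, with 68.31% to 69.56% over the 4 pairs. The late KO replicates shared 77.97% and the early KO replicates 76.08%. In WT cells the shared portion between stages was smaller, at 60.59% (60.07% to 61.46%), beside 76.5% within late WT and 70.26% within early WT. Late KO libraries shared 71.03% with late WT and 58.0% with early WT. Early KO libraries shared 62.5% with early WT (60.93% to 63.92%), no more than the 63.94% they shared with late WT (63.46% to 64.78%). These shares are descriptions, and the differences between them were not tested.

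Most islands had a counterpart at the other stage. Between 86.61% and 92.15% of the islands of a late KO list were overlapped by an island of an early KO list, and between 83.55% and 89.23% the other way. Islands without a counterpart sat low in their lists, at a median percentile of 11.3 to 14.08 on a scale from 0 (lowest score) to 100 (highest).

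Merging the islands of the 4 KO libraries wherever they overlapped or touched gave 32700 regions. Kept regions, with an island in all 4 libraries, numbered 22799 (69.72%). Gained regions, with an island in both late and neither early library, numbered 1500 (4.587%), and lost regions, with the reverse, numbered 2231 (6.823%). The other 6170 (18.87%) were split in some other way, and the 4 splits that joined 1 late with 1 early library held 21 to 295 regions each. With lists of equal length the order of the changed classes turned, to 1929 gained and 1709 lost. With only 1 list required at a stage the counts moved further, to 2341 gained without late KO 1, 2704 gained without early KO 1 and 4308 lost without early KO 2. The same rule in WT cells gave 3149 gained (9.585%), 1827 lost (5.561%) and 20201 kept (61.49%) of 32855 regions.

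Gained and lost regions were narrow and low in rank. The median region spanned 2200 bp in both classes and 3600 bp among kept regions. A kept region merges islands of 4 lists and a gained or lost one those of 2. Any covered window in each list makes a wide region kept, so part of the contrast in width follows from the rule. Regions wider than 5 kb made up 4.333% of the gained (65), 3.182% of the lost (71) and 30.58% of the kept class (6973). The widest gained region spanned 9800 bp and the widest lost one 19000 bp, while the widest kept one spanned 144000 bp. Median percentiles were 15.18 for gained, 17.0 for lost and 59.0 for kept regions. In the 2 lists that held them, 19 gained (1.267%) and 27 lost regions (1.21%) stood above the middle of the list, against 60.44% of kept regions. Kept regions carried 92.35% and 92.28% of the covered length in late KO cells, against 89.13% and 92.11% in early KO cells. Gained regions carried 3.151% and 2.814% of the late KO length, and lost regions 4.13% and 4.691% of the early KO length.

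**Figure D1:**
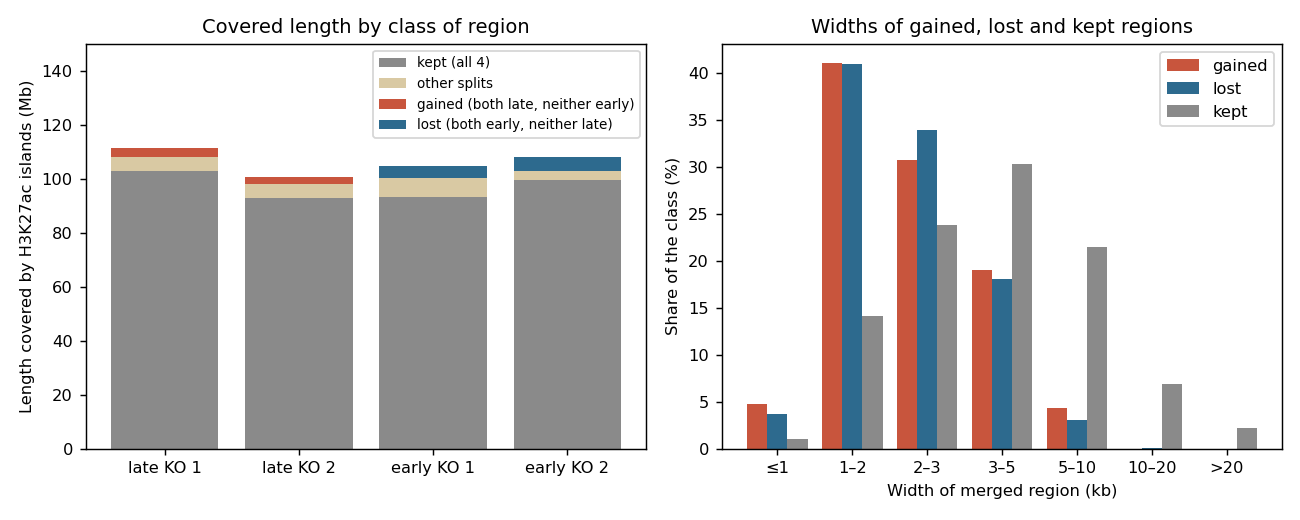
The left panel stacks the length covered by islands (Mb) in each of the 4 KO libraries by class of region, and the right panel gives the share of each class (%) by width of the merged region (kb). Kept regions make up between 89.13% and 92.35% of each library, and the gained and lost classes have nearly the same widths, with a median of 2200 bp each.

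Whether a region was held at the other stage went with its rank. For this the islands of each stage were merged on their own. Of the regions present in both late KO lists, 23.93% of those at percentiles 0 to 20 were in neither early list. That share was 7.954% at percentiles 20 to 40, 1.318% at 40 to 60 and 0.0539% at 60 to 80, and it was 0 of 5641 above 80. Of the regions present in both early KO lists, 34.89%, 13.72%, 2.203% and 0.1025% were in neither late list over the same ranges, and 0 of 5931 above 80. Of regions wider than 20 kb, 0 of 400 late and 0 of 330 early ones were missing from both lists of the other stage. A region counted as held if any 200-bp window of it was covered at the other stage. A wide region could thus hardly be missing, so no persistence is read from its width. Low islands lie nearest to the caller's threshold, and its part in these shares was not tested.

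The nearest kept region was at a median distance of 12.8 kb from a gained and 14.8 kb from a lost region. Within 5 kb of a kept region lay 29.4% of gained and 26.54% of lost regions, and 9.267% and 9.547% lay more than 100 kb away. Chromosome 16 had the highest ratio of both to kept regions among the autosomes and X, with 9.434 gained and 13.92 lost per 100 kept. The lowest were 5.027 gained per 100 kept on chromosome 10 and 7.042 lost per 100 kept on chromosome 7.

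The gained regions with the highest ranks were acetylated in late WT cells too. The first, on chromosome X at 46418001 to 46424400, was covered over 6.4 and 4.4 kb in late KO cells and over none in early KO cells. Its mean percentile was 62.77 in the late KO lists, and WT cells had 6.4 and 6.4 kb late and 0 and 0 kb early. A pair of gained regions on chromosome 9 came next. The one at 69603801 to 69613200 had 9.0 and 7.2 kb in late KO and none in early KO cells (percentile 61.56). The one at 69513601 to 69522800 had 9.2 and 8.0 kb in late KO and none in early KO cells (percentile 61.45). Of the 8 gained regions with the highest percentile, the exception to a late-only pattern in WT was chromosome 3 at 135392801 to 135398200. There, islands covered 5.4 and 5.2 kb in late KO and none in early KO cells, and 5.2 and 5.0 kb in late WT and 1.8 and 1.6 kb in early WT cells.

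Of the 8 lost regions with the highest percentile, those on chromosomes 3 and 14 had no island in any WT library, while the others had. The first, on chromosome 3 at 93424601 to 93437800, had no island in late KO cells and 13.2 and 10.6 kb in early KO cells, at a mean percentile of 67.87. The one on chromosome 14, at 48898401 to 48907200, had none in late KO and 8.2 and 6.2 kb in early KO cells. The widest lost region, on chromosome 12 at 109116801 to 109135800, ranked lower, at a mean percentile of 40.95. It had none in late KO and 10.8 and 19.0 kb in early KO cells. All 3 were listed at 0 in the 4 WT H3K27ac libraries. The regions on chromosomes 3 and 12 were also without a DNase island (open chromatin) in every DNase library. The region on chromosome 14 had 0.8 kb of DNase islands in early KO 2 alone. Others followed WT cells, as on chromosome 8 at 131025601 to 131037000, with none in late KO and 8.4 and 11.0 kb in early KO cells, and none in late WT and 8.2 and 7.2 kb in early WT cells.

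The WT libraries did not enter the classes, and they split along them by stage. Late WT libraries had an island over 58.87% and 72.07% of gained regions, against 12.2% and 15.07% in early WT libraries. For lost regions the shares were 14.16% and 29.18% in late WT and 48.59% and 55.85% in early WT libraries. Kept regions were overlapped at 92.03% and 95.2% in late WT and 86.76% and 89.1% in early WT libraries. Counted by region, 633 gained regions (42.2%) were in both late WT and neither early WT list, and 3 (0.2%) showed the opposite. Among lost regions 508 (22.77%) were in both early WT and neither late WT list, and 24 (1.076%) showed the opposite. No WT island at all lay over 378 gained (25.2%) and 818 lost regions (36.67%), while 83.24% of kept regions were in all 4 WT lists.

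DNase-seq, which reads open chromatin, was measured in the same 4 groups and also had no part in forming the classes. DNase islands covered 25.93 and 26.22 Mb in late KO cells, against 31.35 and 49.33 Mb in early KO cells, so the classes are compared within a library only. In the 4 late DNase libraries, gained regions were overlapped more often than lost ones, at 15.27% against 5.289% in late KO 1, 14.07% against 5.11% in late KO 2, 32.6% against 14.57% in late WT 1 and 49.8% against 25.91% in late WT 2. In the 4 early libraries the order was the reverse, at 10.27% gained against 23.8% lost in early KO 1 and 28.47% against 48.9% in early KO 2. Early WT 1 had 26.53% against 42.54%, and early WT 2 had 31.47% against 47.38%. Kept regions were overlapped at 57.38% to 87.47% in all 8. Neither a WT H3K27ac island nor a DNase island of any library lay over 195 gained (13.0%) and 331 lost regions (14.84%).

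**Figure D2:**
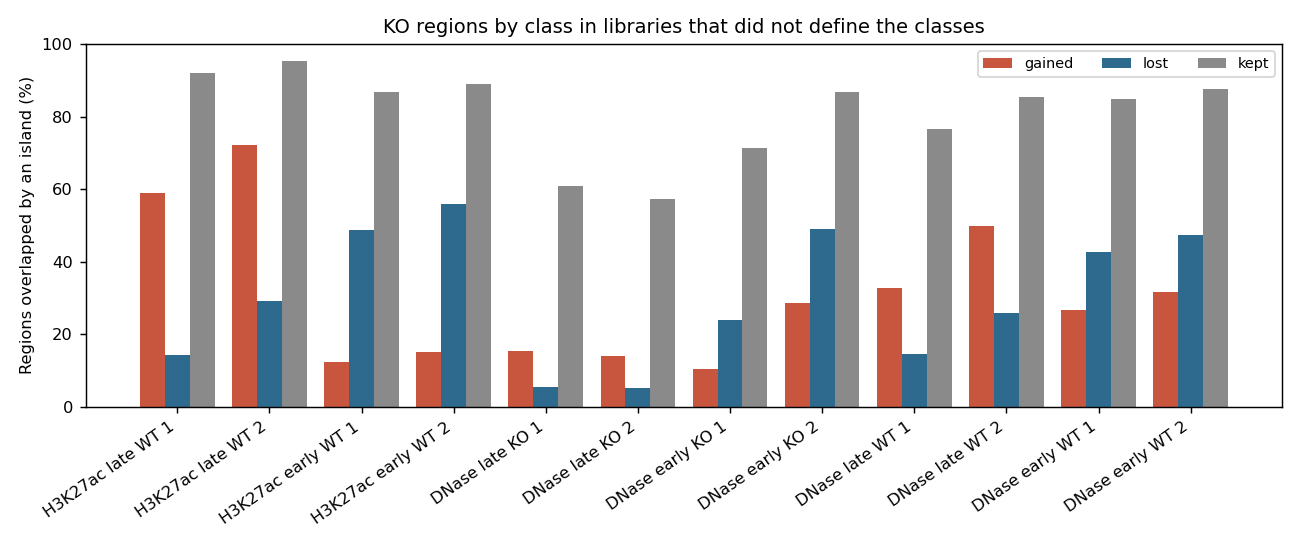
Bars give the share (%) of gained, lost and kept KO regions overlapped by at least 1 island in each of the 12 libraries that did not define the classes, with DNase lists of unequal length. Gained regions exceed lost ones in each late library, and lost regions exceed gained ones in each early library.

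Most kept regions had similar widths at the 2 stages. Covered length was greater in both late than in both early KO libraries for 3992 of 22799 kept regions (17.5%) and smaller for 3972 (17.4%). The median difference was 0.0 kb. In random order without ties, 2 values against 2 separate in a fraction of 0.3333, shared evenly by the 2 directions. Both counts lie near that share, so no change of width is read from them. These counts rested on both replicates. With 1 library set aside they reached 8846 wider regions without late KO 2 and 8127 without early KO 2, and 8979 narrower ones without late KO 1 and 8177 without early KO 1. Changes of at least 10 kb in the mean covered length were few, with 46 regions wider and 10 narrower in late KO cells.

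Ranks held less well between stages than between replicates. Percentiles of kept regions had a Spearman correlation of 0.991 between the late KO lists and 0.989 between the early KO lists, against 0.914 to 0.925 across stages (over 22799 regions of the same genome, a description). The percentile differed by more than 20 points in 0.1579% of kept regions between the late and 1.833% between the early replicates, and in 9.47% to 10.89% across stages. The median gap was closer, at 2.316 points between the late and 4.045 between the early replicates, against 4.833 to 5.949 across stages. The mean percentile was more than 20 points higher in late KO cells for 786 kept regions and more than 20 points lower for 1226. Both late percentiles lay above both early ones in 5318 kept regions (23.3%) and below in 8808 (38.6%). Random order without ties would separate the stages in a fraction of 0.3333, shared evenly by the 2 directions. The imbalance between above and below depended on list length, since lists of equal length gave 7698 above and 7872 below. Without early KO 1, the longest list, 10407 were above, and without early KO 2 14827 were below.

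**Figure D3:**
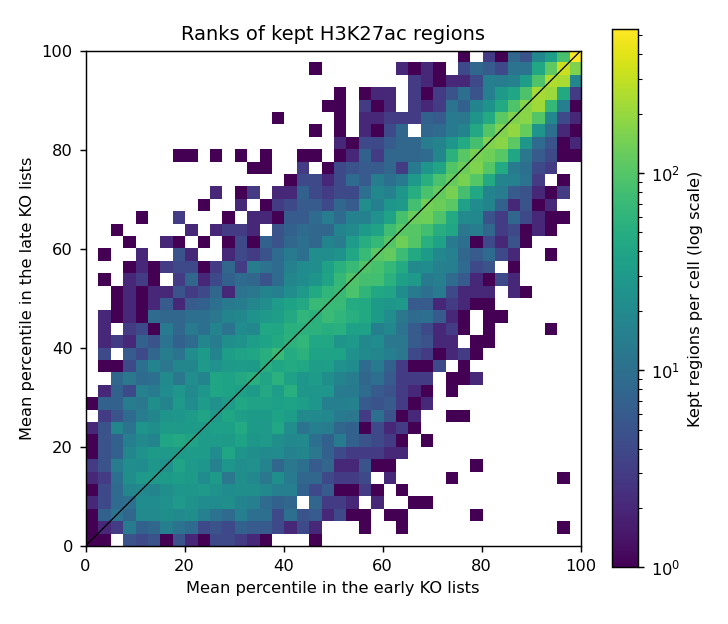
Each cell counts kept regions (log color scale) by the mean percentile in the early KO lists (x axis) and in the late KO lists (y axis), 0 lowest and 100 highest, with a line of equal rank. The regions gather along the line, most closely near the top, and a few lie at the lower right, among them the region on chromosome 11 at percentile 4.47 in late and 97.09 in early KO cells.

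In the kept regions with the largest falls in rank, a long acetylated stretch shrank to a short one. The region on chromosome 11 at 52073801 to 52100200 was covered over 2.2 and 2.6 kb in late KO cells, against 25.4 and 22.4 kb in early KO cells. Its percentile was 1.5 and 7.45 in late KO and 97.18 and 96.99 in early KO lists. On chromosome 6, the region at 99317201 to 99341200 had 2.0 and 1.6 kb in late KO and 24.0 and 23.4 kb in early KO cells. Its percentile was 6.39 and 22.68 in late KO and 95.76 and 95.93 in early KO lists. Thus in both regions the early islands ranked near the top of their lists and the late ones low, at percentile 22.68 or below. WT cells had no island in either region late, and 20.4 and 20 kb (chromosome 11) and 14.2 and 19.4 kb (chromosome 6) early.

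The largest rise in rank was on chromosome 15 at 78155601 to 78165800. Its percentile was 79.6 and 80.15 in late KO lists, against 32.75 and 3.38 in early KO lists, and it covered 10 and 9.4 kb late and 4.8 and 2.4 kb early. WT cells had 8.6 and 8.6 kb late and none early. Another, on chromosome 11 at 31267401 to 31274400, had a mean percentile of 79.85 in late KO and 22.03 in early KO lists. Its WT libraries did not share that split, with 5.8 and 6.6 kb late and 6.2 and 6.2 kb early.

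A gain in covered length cannot exceed the width of its region, so the largest gains had to lie in long regions. The first in covered length was on chromosome 2 at 179905001 to 179979400, with 74.4 and 71.4 kb in late KO cells and 30.8 and 26.4 kb in early KO cells. It was made of 1 and 4 islands in the late lists and of 4 and 3 in the early lists. The widest region, on chromosome 17 at 87151401 to 87295400, had 142.2 and 140.8 kb in 3 and 3 islands in late KO cells, against 104.4 and 122.4 kb in 13 and 10 islands in early KO cells. On chromosome 9 at 124013201 to 124065600, islands covered 52.4 and 47.8 kb in late KO and 24.6 and 25.8 kb in early KO cells. All 3 were longer late than early in WT cells too, with 63.4 and 58.4 kb late and 29.4 and 25.4 kb early on chromosome 2. Falls of at least 10 kb were fewer than rises, at 10 against 46 kept regions. One was on chromosome 3 at 130812001 to 130900600, with 71.4 and 67.2 kb in late KO and 86.6 and 87.4 kb in early KO cells.

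To test late against early cells, the kb covered by islands in each 10-kb bin were compared on the log2(kb + 0.5) scale with limma. The fit held 39126 bins covered in at least 2 of the 8 H3K27ac libraries. At a Benjamini-Hochberg adjusted p under 0.05, 3756 bins (9.6%) differed between late KO and early KO cells. Coverage rose in 1820 bins (4.65%) and fell in 1936 bins (4.95%). In WT cells 6381 bins (16.3%) differed, with 3733 higher (9.54%) and 2648 lower (6.77%). The KO counts rested on both replicates, since higher bins numbered 1021 without late KO 1 and 1044 without late KO 2, and lower bins 1032 without early KO 1 and 973 without early KO 2. With the upper 50% of each list by score, 1019 were higher and 1049 lower, and these were mostly other bins: they held 398 (21.87%) of the bins that rose with full lists and 239 (12.35%) of those that fell.

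Most called bins were empty at one stage. Among the 1820 higher bins, 1040 (57.14%) were empty in both early KO libraries, and coverage over all 1820 averaged 3.698 kb in late KO and 1.192 kb in early KO cells. Among the 1936 lower bins, 1457 (75.26%) were empty in both late KO libraries, and coverage over all 1936 averaged 0.5438 kb in late KO and 2.87 kb in early KO cells. Where all 4 KO libraries had an island, 709 bins rose with a median log2 change of 0.95, and 430 fell with a median of -1.03. For bins listed at 0 the fitted change depends on the added 0.5 kb, and the kb are given in place of a fold.

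The 10 largest rises filled bins that were empty in early KO cells, and coverage also rose in WT cells in 9 of them. On chromosome 2 the bin at 179920001 to 179930000, inside the region that widened most, held 10 and 9.4 kb in late KO and none in early KO cells (limma adjusted p = 0.000808). Late WT cells had 2.2 and 4.6 kb there and early WT none. On chromosome 9, the bin from 124020001 held 10 and 9.4 kb in late KO and none in early KO cells (adjusted p = 0.000704), with 9.4 and 8.0 kb in late WT and none in early WT cells. Another on chromosome 9, from 69510001, which holds one of the gained regions above, had 9.2 and 9.0 kb in late KO and none in early KO cells (adjusted p = 0.000704). In 8 of the 10 largest rises the early WT libraries held 0.6 kb or less. The exceptions were on chromosome 7 from 97300001, with 4.4 and 4.0 kb in early WT cells and a KO call lost with the upper 50% of each list (adjusted p = 0.643), and on chromosome 1 from 93870001, with 9.4 and 10 kb. This chromosome 1 bin held 7.2 and 8.0 kb in late KO and none in early KO cells (adjusted p = 0.0408), its late WT libraries differed, at 8.6 and 0.6 kb, and its call was lost when any late KO, early KO or early WT library was left out.

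By the same ranking, which favours bins going from full to empty, the 10 largest falls emptied bins that were widely covered in early KO cells. Mean coverage was also lower late than early in WT cells in all 10, and 8 of these WT falls were called. The WT fall was not called on chromosome 4 from 119710001 (limma adjusted p = 0.0517) or chromosome 16 from 23280001 (limma adjusted p = 0.0893). On chromosome 6 the bin from 99330001 held none in late KO and 10 and 10 kb in early KO cells (limma adjusted p = 0.000738), and none in late WT and 5.4 and 6.6 kb in early WT cells. On chromosome 11 the bin from 52090001 held none in late KO and 10 and 8.4 kb in early KO cells (adjusted p = 0.000738), and none in late WT and 8.4 and 8.4 kb in early WT cells. On chromosome 5 the bin from 124460001 held none in late KO and 9.2 and 10 kb in early KO cells (adjusted p = 0.000738), a call lost with the upper 50% of each list (adjusted p = 0.164). All 10 of the largest falls had 0 kb in both late KO libraries, which the ranking favours. Of these, the bins on chromosome 16 from 23280001 and on chromosome 4 from 119710001 lost their calls without any one of the 4 KO libraries.

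**Figure D4:**
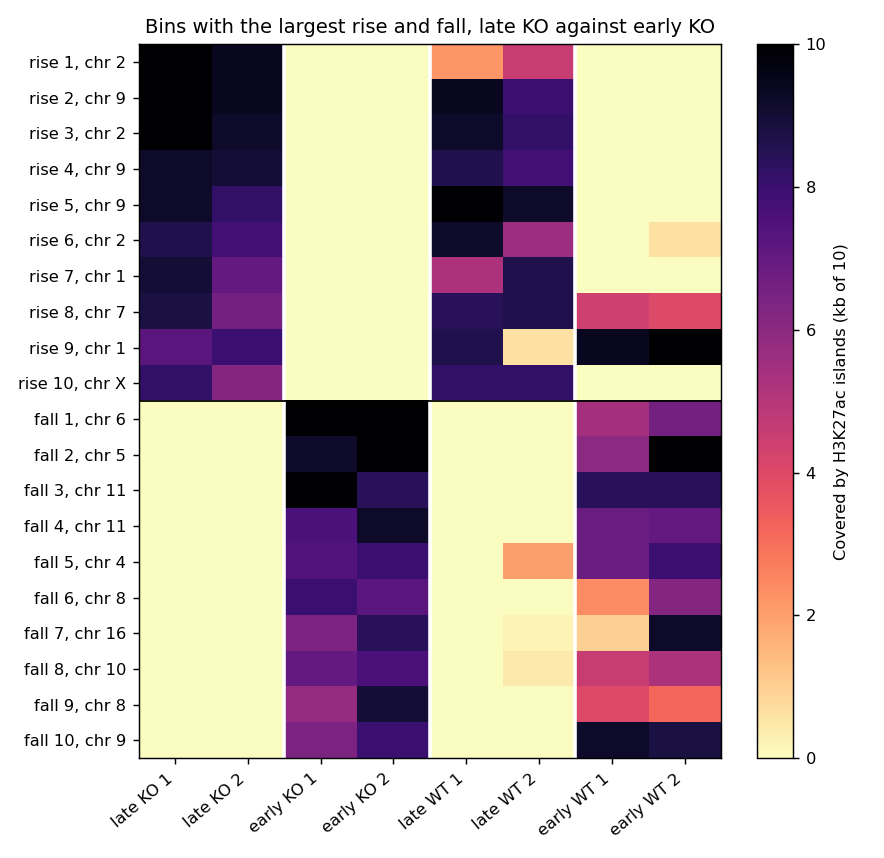
Shading gives the kb covered by H3K27ac islands, from 0 to 10, in each library (columns) for the 10 bins with the largest rise and the 10 with the largest fall (rows, with chromosome). The 10 rises are empty in both early KO libraries and the 10 falls in both late KO libraries, and most rows have the same pattern in WT cells, with the ninth rise, on chromosome 1, as an exception.

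Runs of neighbouring called bins were few, and the longest ones fell. Coverage rose in 41 runs of at least 3 bins (137 bins, 7.527% of those that rose, the longest 5 bins) and fell in 23 runs (85 bins, 4.39%, the longest 7). The first of the longest falls, 70 kb on chromosome 6 at 99320001 to 99390000, held 6.6 and 7.4 kb in late KO and 51.8 and 52.6 kb in early KO cells. Its WT libraries held 2.6 and 2.6 kb late and 25.6 and 28.2 kb early. The second, 70 kb on chromosome 8 at 131020001 to 131090000, held 3.0 and 2.8 kb in late KO and 35.8 and 39.4 kb in early KO cells, and 0.0 and 0.0 kb in late WT and 24.4 and 26.6 kb in early WT cells. Both stretches were thus nearly empty in late cells of both genotypes, and early KO cells had more coverage than early WT cells.

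The other long falls were shorter. Chromosome 11 at 52110001 to 52170000 held 1.0 and 0.0 kb in late KO and 14.8 and 17.2 kb in early KO cells, beside 1.0 and 1.0 kb in late WT and 8.4 and 9.0 kb in early WT cells. Chromosome 4 at 32450001 to 32500000 held 10.4 and 9.6 kb in late KO and 26.2 and 29.6 kb in early KO cells. Chromosome 11 at 98950001 to 98990000 held 4.4 and 2.2 kb in late KO and 20.6 and 21.6 kb in early KO cells. In the 4 groups of each of these runs, replicates lay close together relative to the gap between stages.

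The longest rises covered 5 bins each. Chromosome 7 at 97140001 to 97190000 held 39.2 and 36.2 kb in late KO and 14.4 and 15.2 kb in early KO cells, with 37.6 and 37.6 kb in late WT and 10.4 and 10.6 kb in early WT cells. Chromosome 9 at 123850001 to 123900000 held 34.6 and 33.6 kb in late KO and 5.6 and 7.0 kb in early KO cells, with 33.4 and 36.8 kb in late WT and 5.8 and 4.2 kb in early WT cells. Chromosome 9 at 51960001 to 52010000 held 33.2 and 26.6 kb in late KO and 7.8 and 8.4 kb in early KO cells. In these runs late KO matched late WT, and early KO early WT, to within a few kb.

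The KO and WT contrasts share no library, though they share 1 estimate of the spread. Of the bins that rose in KO cells, 1040 also rose in WT cells, which is 57.14% of the KO list and 27.86% of the WT list, and 22 fell in WT cells. Of those that fell in KO cells, 703 also fell in WT cells, 36.31% of the KO list and 26.55% of the WT list, and 33 rose. The median WT change was 0.98 on the log2 scale over the bins that rose in KO cells and -0.2 over those that fell, beside 0.04 over all bins tested in either genotype. Across all bins the KO and WT changes had a Pearson correlation of 0.455 and a Spearman correlation of 0.427, as a description over neighbouring bins that are not independent.

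In KO cells the late minus early difference holds the stage of deletion as well as time. Whether the late minus early difference was the same in both genotypes was tested as an interaction in the same fit. It was called in 3966 bins (10.1%), with 1547 (3.95%) where the change was more positive in KO and 2419 (6.18%) where it was more negative in KO cells. Without early WT 1, early WT 2 or late KO 2 the more positive bins numbered 771, 874 and 947, and without early KO 1 the more negative ones numbered 1514. With the upper 50% of each list they were 770 and 1428. Among the KO rises, the interaction was positive in 471 bins and negative in 96 (31.15% in all). Among the KO falls it was positive in 26 and negative in 910 (48.35% in all). The members of these lists were chosen by the KO change, which is part of the interaction, so nothing is read from these shares. In the bins that fell, coverage averaged 0.8788 kb in late WT and 2.128 kb in early WT cells, set beside 0.5438 kb in late KO and 2.87 kb in early KO cells.

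**Figure D5:**
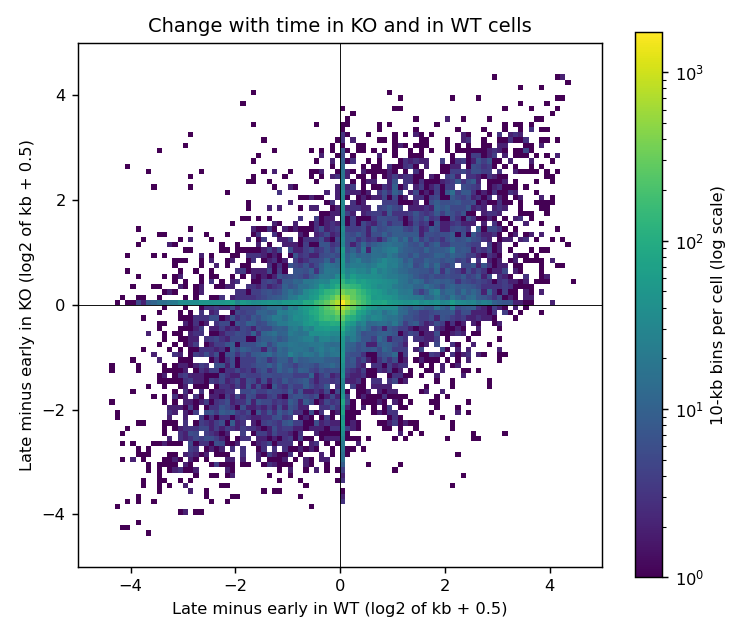
Each cell counts 10-kb bins (log color scale) by the late minus early difference in WT (x axis) and in KO cells (y axis), both on the log2(kb + 0.5) scale. The cloud runs from the lower left to the upper right (Pearson correlation 0.455), and the lines along the axes are bins with next to no difference in one genotype.

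In a few bins the direction was opposite in the 2 genotypes. On chromosome 3 the bin from 135310001 held 2.4 and 2.6 kb in late KO and none in early KO cells, but none in late WT and 8.8 and 7.4 kb in early WT cells (limma interaction adjusted p = 0.00286). Chromosome 4 from 154540001 held 4.4 and 3.6 kb in late KO and none in early KO cells, against 0.4 and 0.0 kb in late WT and 4.8 and 4.0 kb in early WT cells (adjusted p = 0.00286). In both, late KO and early WT cells held the mark and the other groups held next to none. The reverse pattern was seen on chromosome 3 from 93380001, near the highest ranked lost region, with none in late KO and 5.0 and 4.0 kb in early KO cells, against 1.8 and 2.0 kb in late WT and none in early WT cells (adjusted p = 0.00286). On chromosome 19 from 44120001 the values were none in late KO and 2.2 and 2.4 kb in early KO cells, against 4.0 and 3.6 kb in late WT and none in early WT cells (adjusted p = 0.00286). With lists of equal length the chromosome 19 bin was no longer called in KO cells (adjusted p = 0.71) nor in the interaction (adjusted p = 0.454). The chromosome 3 bin from 135310001 then showed no KO change at all (log2 change 0.0, adjusted p = 1.0), and its interaction rested on the WT fall.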

How the data were processed

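The submitters' processing notes name CASAVA 2.18, Bowtie2, SICER 1.1 and the build mm9. The deposited lists give chromosome, start, end and a score for each island, the authors' own value, used here only to rank and filter within a list. The file names carry a window of 200 bp, a gap of 400 bp and an E-value of 1, and 1 list per library was called. No control library, read number or duplicate rate is given in the sources used here, so no interval or floor on an absent island could be set.

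Groups came from the labels. Islands of the 4 KO libraries were merged where they overlapped or touched, and the percentile of a region in a list is the mid-rank of its best island. Bins of 10 kb covered in at least 2 of 8 libraries were taken as log2(kb + 0.5), and each library was centred by its median over bins covered in every library. The 4 groups were fitted together with limma 3.58.1 (lmFit, eBayes with trend) in R 4.3.3, and p-values were adjusted over all bins. Where both lists of a group are at 0 kb or at the full 10 kb, that group adds almost nothing to the spread, and p depends on the remaining groups and on the moderation across bins. Totals were compared with exact permutation tests. Other steps used scipy 1.17.1, pandas 2.3.3 and numpy 2.4.6 in Python 3.11.15, with figures by matplotlib 3.10.9. The fit was tested on simulated data with normal noise around the mean of each bin and changes put only into bins of middling coverage. No simulated group was held at 0 kb, so that test says nothing on bins empty in both lists of a group.

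The members, lists and tests were chosen with earlier results of these data known. Named bins are the 10 called bins with the largest rise and fall and the 5 with the largest interaction each way among bins called in KO, named regions the 8 of highest percentile and the 5 widest per class, named kept regions the 5 largest moves, and named runs the 5 longest each way, and the text gives part of them. The alternatives were other centrings, equal or halved lists, another pseudocount, no bin filter, 50-kb bins, a replicate block, KO libraries alone, other region rules and each library left out. The readings of the WT contrast under them were added after the data were seen. The gene table at hand is of GRCm38.p6, and islands on several chromosomes end beyond its last gene, so it was not used. Gene loci, planned for an mm9 annotation, were not analysed here.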

Additional observations from a re-analysis of the deposited data

Results flagged for a closer look

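Late minus early differences that were unlike in KO and WT cells put these results on the list (limma interaction test, adjusted p under 0.05). The late minus early difference was more positive in KO than in WT cells in 1547 bins and more negative in 2419, of 39126 tested.

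By the largest interaction among bins called in KO cells, 5 bins stood out with a more positive change in KO cells. These were chromosome 3 from 135310001 (adjusted p = 0.00286), chromosome 4 from 61960001 (adjusted p = 0.00286), chromosome 4 from 154540001 (adjusted p = 0.00286), chromosome 14 from 121710001 (adjusted p = 0.00315) and chromosome 6 from 108240001 (adjusted p = 0.036). Chromosome 4 from 61960001 held 3.0 and 2.6 kb in late KO and 0.2 and 0.0 kb in early KO cells, against 0.4 and 0.0 kb in late WT and 8.2 and 7.6 kb in early WT cells. With the upper 50% of each list, its KO change (adjusted p = 0.276) and its interaction (adjusted p = 0.544) were not called. Chromosome 14 held 4.8 and 2.4 kb in late KO and none in early KO cells, against none in late WT and 2.2 and 5.6 kb in early WT cells. With lists of equal length, neither its KO change (adjusted p = 0.55) nor its interaction (adjusted p = 0.0978) was called, and the KO call was also lost without early KO 2 or late KO 1. Chromosome 6 held 8.2 and 5.0 kb in late KO and none in early KO cells, with WT replicates that differed from each other, at 0.0 and 2.4 kb late and 6.2 and 2.6 kb early. Its interaction lost its call without any one of the KO or early WT libraries (adjusted p of 0.051 to 0.151 over these and 3 further settings).

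A more negative change in KO cells was found on chromosome 17 from 51870001 (limma adjusted p = 0.00819), chromosome 19 from 44120001 (adjusted p = 0.00286), chromosome 3 from 93380001 (adjusted p = 0.00286), chromosome 1 from 38290001 (adjusted p = 0.00286) and chromosome 15 from 30390001 (adjusted p = 0.00286). The bin on chromosome 17, at the edge of a region of 104200 bp that all 8 libraries hold, had none in late KO and 4.8 and 5.6 kb in early KO cells, against 3.8 and 0.6 kb in late WT and none in early WT cells. Its KO call was lost without any one of the 4 KO libraries (adjusted p of 0.0676 to 0.104). Chromosome 1 had none in late KO and 2.2 and 2.8 kb in early KO cells, against 2.8 and 2.2 kb in late WT and none in early WT cells. Chromosome 15 had none in late KO and 3.0 and 2.2 kb in early KO cells, against 2.4 and 2.2 kb in late WT and none in early WT cells. With lists of equal length the interaction was not called on chromosome 1 (adjusted p = 0.0697) or chromosome 15 (adjusted p = 0.0678), nor was the KO change (adjusted p = 0.44 and 0.0908). The KO call on chromosome 3 from 135310001 was lost in the same way (adjusted p = 1.0), as were both calls on chromosome 19 (adjusted p = 0.71 in KO cells and 0.454 for the interaction). What sets these bins apart was not tested.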

How the results depend on the processing

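The depth behind the lists is unknown, which limits every count. Most gained and lost regions sat low in their lists, towards the calling threshold, and the part of that threshold in the counts was not tested. With 2 libraries against 2, no permutation test of a total could pass. With the upper 50% of each list by score, KO bins were 1019 higher and 1049 lower, interaction bins 770 and 1428, WT bins 1845 and 1178, regions 573 gained, 923 lost and 12253 kept, kept regions 2206 wider and 1891 narrower, and 2592 higher and 4779 lower in percentile. Bins of 50 kb gave 1021 and 1096 in KO, 590 and 1089 for the interaction and 2235 and 1656 in WT, and fewer bins were tested there. The cause of the other moves was not tested. Same-numbered samples did not deviate together over the bins (correlation -0.003 between late KO and early KO). That gives no sign of pairing by number but cannot exclude it, and the main fit had no block. With the replicate number as a block, KO bins were 1315 higher and 1537 lower and interaction bins 646 and 977.

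With each library left out, KO bins ranged over 1021 to 1994 higher and 973 to 2262 lower, interaction bins over 771 to 1794 and 1514 to 2559, and WT bins over 2521 to 3919 and 1768 to 2763. Regions ranged over 1650 to 2704 gained, 2583 to 4308 lost and 23066 to 24330 kept. Kept regions ranged over 5330 to 8846 wider, 5339 to 8979 narrower, 6075 to 10407 higher and 9211 to 14827 lower in percentile. A stage with 1 list is held to a looser rule, and in the fit its lone sample is assumed to vary like the other groups. No other setting moved a count by over 1.5 times. Of 612 comparisons of named bins with an alternative, 547 kept direction and call, 65 lost the call and 0 reversed.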
